A study of Mus musculus with 10 samples.

Results

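The odorant receptor (OR) genes numbered Olfr1417 to Olfr1505 form a cluster on mouse chromosome 19, and they were compared here between H2be-GF and wild-type (WT) mice in the order in which they lie along the chromosome. Members were the probe sets whose annotation gives 1 symbol of the form Olfr and a number, with or without the suffix -ps, in the range Olfr1417 to Olfr1505. The rule found 56 probe sets of 56 genes, among 1034 OR probe sets with 1 symbol and 35556 probe sets in all. Their mean log2 signal over all arrays was above 7 for 31 members and above 5 for 55. The remaining member, Olfr1436, was too dim to be tested, with a level of 4.42 ± 0.32 (SD, n = 6) in WT and of 4.56 ± 0.42 (SD, n = 4) in H2be-GF. In a RefSeq gene table all 56 lie on chromosome 19.

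The samples were whole main olfactory epithelium (MOE), the sensory lining of the nose, from 5-week old mice. There were 4 H2be-GF and 6 WT arrays (Affymetrix Mouse Gene 1.0 ST), each of RNA pooled from several animals, with larger pools for H2be-GF. In H2be-GF mice a transgene places the histone variant H2BE, with a FLAG tag, under the promoter of the olfactory marker protein gene Omp. Most mature olfactory neurons make it, and per the study the share that does differs between receptors. This is 1 founder line, made by injecting a plasmid construct into zygotes and crossed to C57Bl/6, and per the study neurons of a band within the MOE do not express the transgene. The WT label names no other allele. The series states a mixture of both sexes, and the labels give no sex for an array. The labels call the arrays of a genotype replicates, so that a p-value here measures the spread between pools.

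ORs are G protein-coupled receptors at the tip of the olfactory neuron, and each mature neuron expresses a single OR gene from a single allele. OR genes lie in clusters on many chromosomes, where they arose by repeated local duplication, and they are grouped into MOR families by the likeness of their protein sequences. The level of an OR transcript in whole MOE follows from how many neurons express the receptor and how much of its RNA each of them holds. In whole tissue fewer cells of a type and less RNA per cell cannot be told apart.

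The coding starts of those receptors on which the results turn are shown for sequence kinship, since closely related neighbours may share probe sequence. All are taken from RefSeq in build GRCm38.p6, run 5′ to 3′ from the start codon on the strand of the gene, and are 50 bases long. Capitals mark bases that differ from the first receptor of each set. The first set lies at the proximal end of the cluster, with Olfr1417 at chr19:11828975-11829024 on the minus strand, Olfr1418 at chr19:11855902-11855951 on the minus strand and Olfr1420 at chr19:11896023-11896072 on the plus strand.
Olfr1417: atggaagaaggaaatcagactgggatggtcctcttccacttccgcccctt
Olfr1418: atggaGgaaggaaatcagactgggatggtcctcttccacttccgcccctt
Olfr1420: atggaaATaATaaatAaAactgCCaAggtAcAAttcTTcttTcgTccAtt

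The second set holds receptors of the same family, MOR266, from the far part of the cluster, with Olfr1491 at chr19:13704829-13704878, Olfr1494 at chr19:13749108-13749157 and Olfr1495 at chr19:13768344-13768393, all on the plus strand.
Olfr1491: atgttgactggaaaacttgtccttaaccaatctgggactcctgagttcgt
Olfr1494: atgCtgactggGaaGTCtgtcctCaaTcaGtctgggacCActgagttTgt
Olfr1495: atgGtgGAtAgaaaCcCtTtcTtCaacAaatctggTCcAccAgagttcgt

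The third set shows 1 of the 2 members called higher beside the most similar receptor of its family, with Olfr1463 at chr19:13234252-13234301 and Olfr1466 at chr19:13341760-13341809, both on the plus strand.
Olfr1463: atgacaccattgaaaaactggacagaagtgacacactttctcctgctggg
Olfr1466: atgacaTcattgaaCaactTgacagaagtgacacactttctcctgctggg

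Over these bases Olfr1418 was identical to Olfr1417 at 49 of 50 positions and Olfr1420 at 33. Olfr1494 and Olfr1495 matched Olfr1491 at 39 and 36. Between the near and the far set, compared without gaps, 10 to 16 of 50 bases matched. Olfr1490, a far member of MOR266 not shown, matched each of Olfr1417, Olfr1418 and Olfr1420 at 20 of 50. It matched Olfr1491, Olfr1494 and Olfr1495 at 9, 8 and 15, also without gaps. Such a comparison misses kinship where the starts are shifted by a few bases. These low counts therefore do not show how the near and far members are related. Of the 56 members, 54 were in the sequence table and 47 had a start codon at the listed gene start.

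Of the 31 members with a mean above 7, limma called 5 at an adjusted p under 0.05 over all such ORs. Olfr1440 and Olfr1463 rose in H2be-GF. Olfr1417, Olfr1420 and Olfr1442 fell. Over all 748 ORs with a mean above 7, 9.89% were called, 4.01% higher and 5.88% lower, so that 5 of 31 was a count not far above the background. At an unadjusted p under 0.05 12 of 31 members passed (38.7%, with 7 positive and 5 negative), against 23.0% of all ORs and 8.43% of all probe sets tested. The genotypes were without overlap at 4 of 31, against 9.49% of all ORs. Adjusted over all 23194 probe sets, Olfr1420 was the 1 member called, with a background of 0.0862%.

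The changes were small and lay on both sides of 0. Over the 31 members the median log2 change, H2be-GF minus WT, was 0.13, in a range of -0.59 to 0.36, with 20 positive and 11 negative. Over all 748 ORs the median was 0.02 (SD 0.19) and 53.7% were positive. With the dimmer members included, 37 of 55 were positive, at a median of 0.08 and in a range of -0.59 to 0.50.

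**Figure D1:**
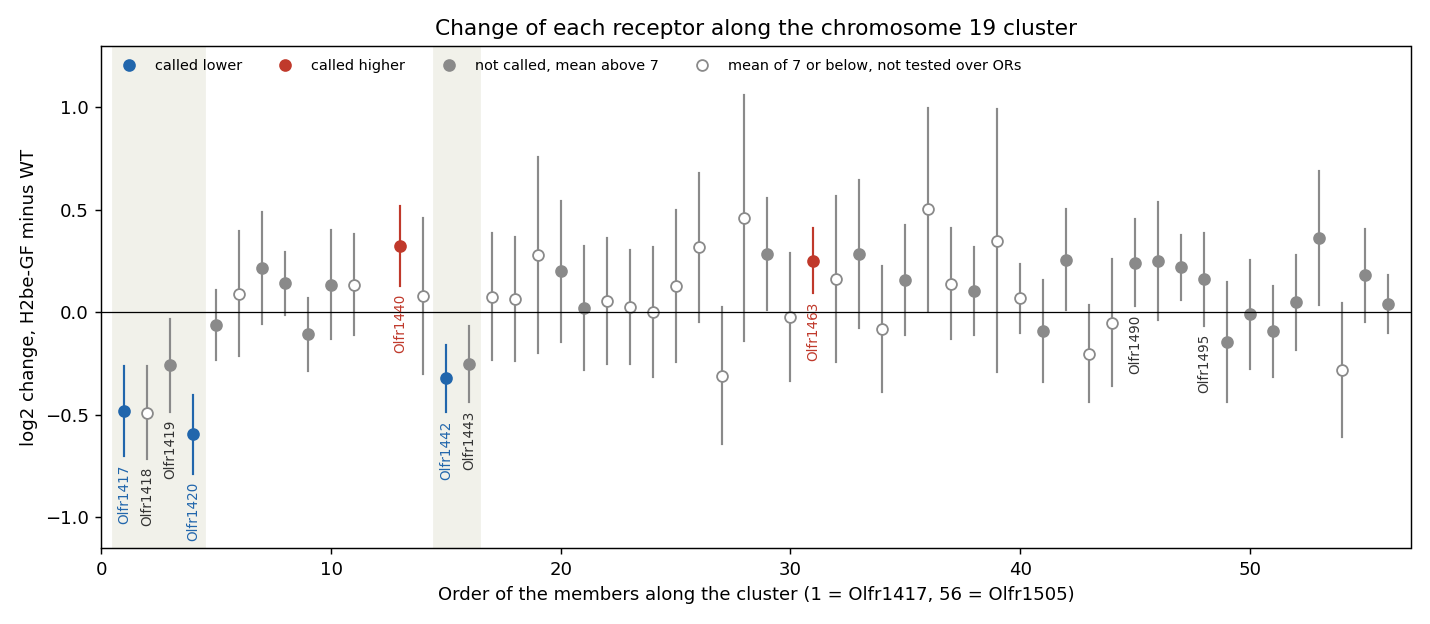
Log2 change (H2be-GF minus WT, vertical) with its 95% interval for each member tested, against its place in the order along the cluster; filled points have a mean above 7, and blue and red mark the 3 members called lower and the 2 called higher. Shading sets apart groups of neighbours with gaps of over 100 kb between them, Olfr1417 to Olfr1420 at the left and the pair Olfr1442 and Olfr1443, all of which lie below 0; the untested Olfr1436 leaves a gap at place 12.

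The members called lower lay in a short stretch at the proximal end and in a neighbouring pair further along. Uncalled negative changes lay elsewhere too. From Olfr1444 to Olfr1505, 10 of 40 members were negative and 30 positive. Olfr1457 at -0.31 (SE 0.15) and Olfr1502 at -0.28 (SE 0.15), both with a mean below 7, were chosen after their values were seen. Split where neighbours were over 100 kb apart in the gene table, an alternative to the planned 200 kb, the cluster had 4 groups. The first, Olfr1417 to Olfr1420, held 4 members, all with a negative change (median -0.48 over the 3 with a mean above 7), of which 2 were called lower. The second, Olfr1423 to Olfr1441, held 10 members, 6 of them with a mean above 7, with a median of 0.14 and 1 called higher. In the third, Olfr1442 and Olfr1443, both changes were negative (median -0.29) and 1 was called lower. The fourth, Olfr1444 to Olfr1505, held 40 members, of which 20 had a mean above 7, with a median of 0.17, 16 positive and 4 negative, and 1 called higher. At the planned gap of 200 kb there were 2 groups, Olfr1417 to Olfr1441 with a median of -0.06 and Olfr1442 to Olfr1505 with a median of 0.16. With members of a mean above 5 included, these medians were 0.08 and 0.09. Outside the first group of 4, the median of 28 members was 0.15.

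Olfr1420 showed the clearest fall of the cluster. Its log2 signal on the 4 H2be-GF arrays was 7.27, 7.43, 7.14 and 7.29, and on the WT arrays it ran from 7.71 over a median of 7.86 to 8.12. Every H2be-GF array lay below every WT array. The means were 7.28 ± 0.12 (SD, n = 4) and 7.88 ± 0.14 (SD, n = 6), a log2 change of -0.59 (SE 0.09, 95% interval -0.79 to -0.40), or 0.662-fold. The limma adjusted p was 0.0036 over ORs and 0.0306 over all probe sets, and an exact permutation test (two-sided, 210 ways to split the arrays) gave 0.00476, the smallest p it allows. The call over all probe sets was lost without any 1 of H2be-GF 1, 3 and 4 or WT 1, 2, 3 and 5, and with a covariate for high or low Xist, an RNA of female cells. The call over ORs held without any 1 array, at changes of -0.64 to -0.54. Among the 748 ORs it ranked 4 from the lowest.

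Olfr1417, at the proximal edge of the cluster, was at 6.91, 7.18, 6.83 and 7.19 in H2be-GF and at 7.22 to 7.62 in WT, with a WT median of 7.56. The genotypes did not overlap, but WT 3 at 7.22 came close to the upper H2be-GF arrays. Its change was -0.48 (SE 0.10, limma adjusted p = 0.0128 over ORs), and it ranked 15 from the lowest of 748.

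Olfr1418, which lies next to it and starts with almost the same coding sequence, was at 6.52, 6.57, 6.59 and 6.97 in H2be-GF and at 6.96 to 7.34 in WT, with a median of 7.15. H2be-GF 4 reached the lowest WT array. The change was -0.49 (SE 0.10). Its mean was just under 7, so it was not among the ORs adjusted together. Over the 1018 ORs with a mean above 5, of which limma called 5.99%, its adjusted p was 0.0171. Whether the probe sets of Olfr1417 and Olfr1418 read each other's RNA is not known here, and their falls may not be separate measurements.

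For Olfr1419 the H2be-GF arrays gave 7.06, 7.05, 6.89 and 7.18 and the WT arrays 7.08 to 7.57, with a median of 7.28. The groups overlapped, and the change of -0.26 (SE 0.10) was not called (limma adjusted p = 0.158 over ORs).

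Taken as the median over the 3 of these 4 receptors with a mean above 7, relative to each receptor's WT mean, the H2be-GF arrays lay at -0.60, -0.33, -0.68 and -0.32. On the WT arrays that median was between -0.22 and 0.06. H2be-GF 1 and H2be-GF 3 were the lowest. No H2be-GF array reached the WT range. Olfr1417 and Olfr1420, both without overlap on their own, are among the 3, so this separation is no added support.

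**Figure D2:**
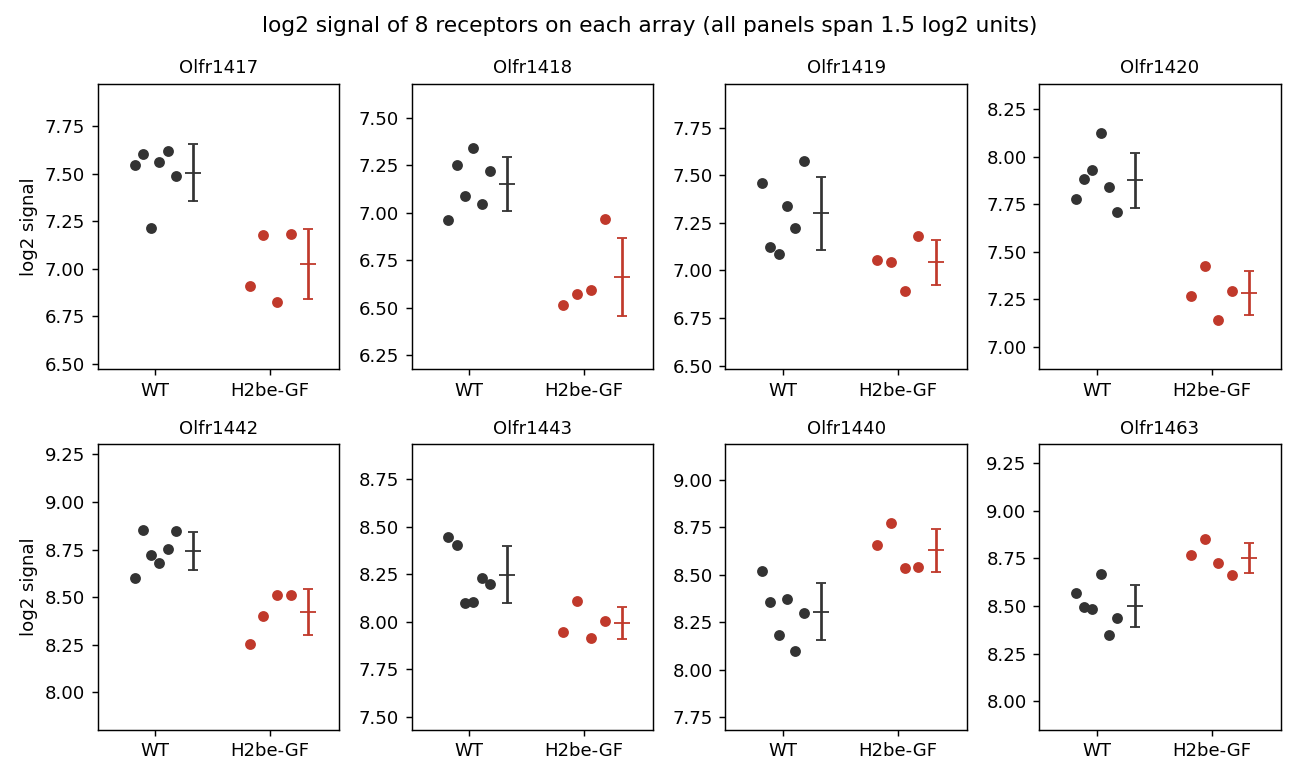
Log2 signal (vertical) of 8 receptors in 8 panels of equal range, where each point is an array, dark for the 6 of WT and red for the 4 of H2be-GF, and the bar to the right of the points gives their mean and SD. All red points lie below the dark ones for Olfr1417, Olfr1420 and Olfr1442 and above them for Olfr1440, and the other 4 receptors overlap.

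The pair Olfr1442 and Olfr1443, of family MOR202, lay apart from their neighbours on either side. Olfr1442 was at 8.26, 8.40, 8.51 and 8.51 in H2be-GF and at 8.60 to 8.85 in WT, with a median of 8.74. The genotypes did not overlap. Its change was -0.32 (SE 0.08, limma adjusted p = 0.0211 over ORs), and the call was lost without H2be-GF 1 or H2be-GF 2 (adjusted p = 0.0743 and 0.0643, at changes of -0.27 and -0.32).

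Olfr1443 was at 7.95, 8.11, 7.92 and 8.01 in H2be-GF and at 8.10 to 8.45 in WT, with a median of 8.22. H2be-GF 2 lay just inside the WT range. The change of -0.25 (SE 0.08) was not called (limma adjusted p = 0.0922 over ORs).

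Both rises that were called were smaller than the falls of Olfr1420 and Olfr1417. Olfr1440, of family MOR215, was at 8.66, 8.77, 8.54 and 8.54 in H2be-GF and at 8.10 to 8.52 in WT, with a median of 8.33. The genotypes did not overlap, though the 2 lower H2be-GF arrays and the highest WT array were close. The change was 0.32 (SE 0.09, limma adjusted p = 0.0434 over ORs, exact permutation p = 0.0143). Leaving out any 1 of H2be-GF 1 to 4 or of WT 3 to 6 ended this call, at an adjusted p of up to 0.129 and a change of 0.27 to 0.35.

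Olfr1463, of family MOR202, was at 8.77, 8.85, 8.73 and 8.66 in H2be-GF and at 8.35 to 8.67 in WT, with a median of 8.49. H2be-GF 4 fell on the highest WT array. The change was 0.25 (SE 0.07, limma adjusted p = 0.0486 over ORs). That call was lost without any 1 array other than WT 4, with an adjusted p of up to 0.152 and a change of 0.22 to 0.28. Olfr1466, whose coding start matches that of Olfr1463 at 47 of 50 bases, had a change of 0.29 (SE 0.16) that was not called (limma adjusted p = 0.342 over ORs). It was chosen after its values were seen.

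Receptors beside the called members had changes of either sign. Next after the first group came Olfr1423 at -0.06 (SE 0.08), Olfr1424 at 0.09 (SE 0.14) and Olfr1426 at 0.22 (SE 0.12). Before Olfr1440 lay Olfr1431 at 0.13 (SE 0.12) and Olfr1434 at 0.14 (SE 0.11), and after it Olfr1441, of its own family, at 0.08 (SE 0.17). Following Olfr1443 were Olfr1444 at 0.08 (SE 0.14) and Olfr1445 at 0.07 (SE 0.14). Around Olfr1463 lay Olfr1459 at 0.46 (SE 0.27), Olfr1461 at 0.28 (SE 0.13), Olfr1462 at -0.02 (SE 0.14) and Olfr1465 at 0.16 (SE 0.19). None of these was called over the ORs with a mean above 5, and their SEs show how little a change of this size could be told from 0. At the distal edge Olfr1505 had a change of 0.04 with the 1 interval that lay within -0.2 to 0.2 (-0.10 to 0.18).

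**Figure D3:**
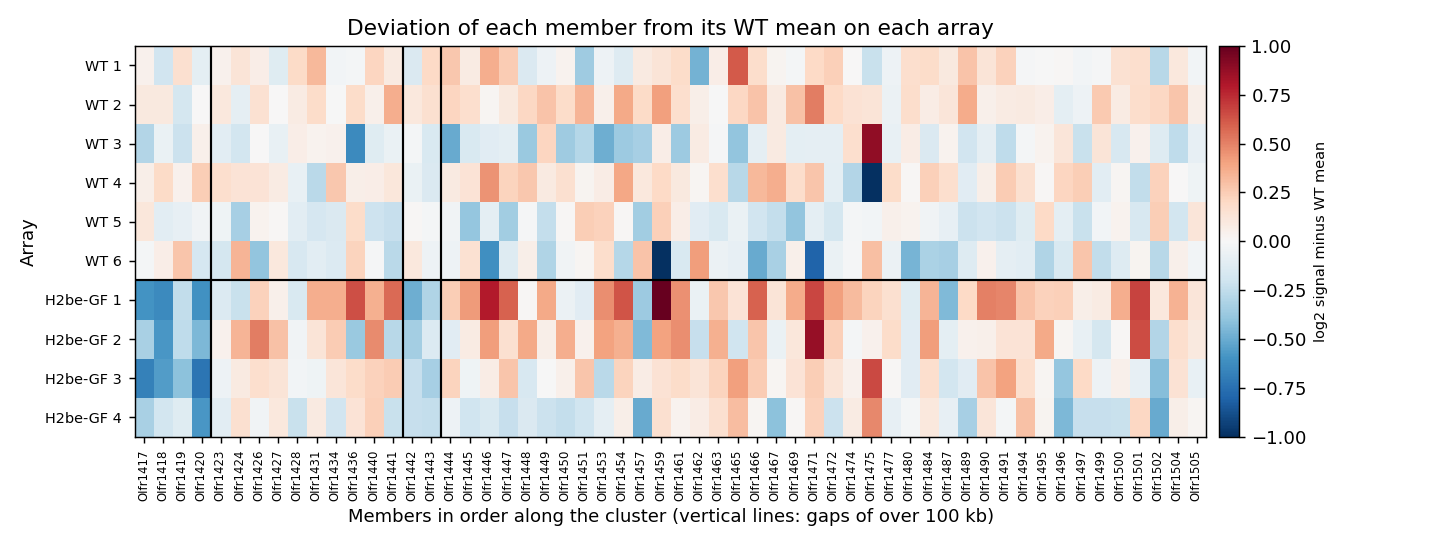
Log2 signal of all 56 members on each array, relative to the member's mean over the WT arrays; columns follow the order along the cluster, rows are the 6 WT and the 4 H2be-GF arrays, and colours stop at -1 and 1. Vertical lines mark gaps of over 100 kb. The columns of Olfr1417 to Olfr1420, left of the first line, and of Olfr1442 and Olfr1443 lie below the WT mean on all 4 H2be-GF arrays. Uncalled columns elsewhere, such as Olfr1428, Olfr1480 and Olfr1487, do so too. Others, such as Olfr1440, Olfr1461 and Olfr1463, lie above it on all 4, and many are mixed.

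Most of the distal 40 members had a positive change, with Olfr1463 the 1 called. The median over the 20 with a mean above 7, relative to the WT mean, was 0.33, 0.13, 0.14 and 0.02 on the H2be-GF arrays and -0.11 to 0.13 on the WT arrays. H2be-GF 1 stood highest and H2be-GF 4 within the WT range. Of the 20, 6 passed an unadjusted p under 0.05 (30%), all positive, against 23.0% of all ORs in either direction. Among the 6 were Olfr1501 at 0.36 (SE 0.15), Olfr1461 at 0.28 (SE 0.13) and Olfr1484 at 0.26 (SE 0.11). Olfr1501 and Olfr1484 were chosen after their values were seen, and none of these 3 was called (limma adjusted p over ORs of 0.169, 0.202 and 0.20 in that order). Without H2be-GF 1 the median over all 31 members was 0.06, and without WT 4 it was 0.08.

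Family MOR266 had members at both ends, whose values ran in opposite directions. The 4 in the first group all had a negative change, at a median of -0.48 over the 3 with a mean above 7. The 4 in the far part, Olfr1490, Olfr1491, Olfr1494 and Olfr1495, all had a positive one, at a median of 0.23. None of the far 4 was called. These were grouped after their values were seen, and the difference between the ends was not tested.

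Olfr1490 was at 8.03, 7.58, 7.82 and 7.65 in H2be-GF against 7.33 to 7.66 in WT (median 7.58), a change of 0.24 (SE 0.10, limma adjusted p = 0.158 over ORs). Olfr1494 was at 7.40, 7.24, 7.28 and 7.40 against 6.99 to 7.27 (median 7.10), a change of 0.22 (SE 0.07, adjusted p = 0.0820 in limma). H2be-GF 2 and H2be-GF 4 lay within the WT range for Olfr1490, and H2be-GF 2 did for Olfr1494. Olfr1491 and Olfr1495 had changes of 0.25 (SE 0.13) and 0.16 (SE 0.10). Within the WT range were H2be-GF 2 and H2be-GF 4 for Olfr1491, and H2be-GF 3 and H2be-GF 4 for Olfr1495.

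**Figure D4:**
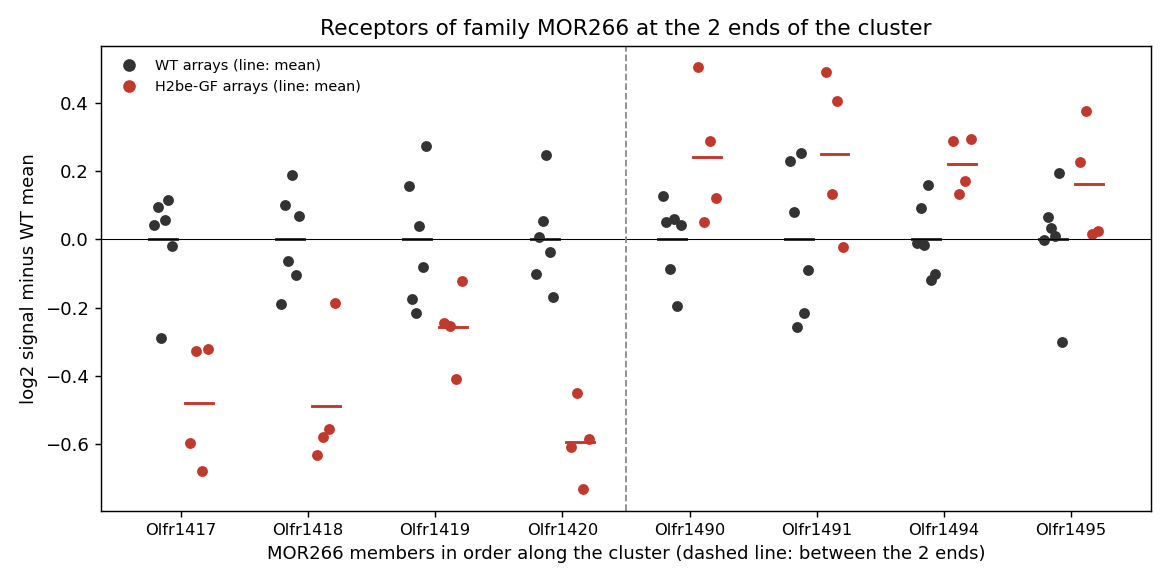
Log2 signal of the 8 members of family MOR266 on each WT (dark) and H2be-GF (red) array, relative to the member's WT mean, in order along the cluster; horizontal lines are means and the dashed line parts the proximal from the far members. The H2be-GF means lie between -0.59 and -0.26 at the proximal end and between 0.16 and 0.25 at the far end. At the far end the genotypes overlap for every member, as they do for Olfr1418 and Olfr1419.

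Family MOR202, with 30 members the most numerous here, had 11 with a mean above 7, at a median of 0.16, with 8 positive and 3 negative. Olfr1463 was called higher and Olfr1442 lower. In MOR239 (Olfr1423 to Olfr1428) the median of 4 members was 0.04 and in MOR212 (Olfr1497 to Olfr1504) the median of 4 was 0.12, with no call in either. In 13 pairs of members, 5 of them adjacent, the coding starts matched at 45 or more of 50 bases. Both changes had the same sign in 10 of them. Over members with a mean above 5, 64.8% of adjacent and 54.8% of other pairs had the same sign. Several members, such as Olfr1480, Olfr1484 and Olfr1487, are in several of the 13 pairs. Pairs this alike may share probe sequence, so that their likeness is uncertain as a result. Olfr1446 and Olfr1447, identical over all 50 bases, had changes of 0.28 (SE 0.22) and 0.20 (SE 0.16).

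Neighbours along the cluster were somewhat more alike than other pairs. The median absolute difference in log2 change was 0.18 between the 30 pairs of adjacent members with a mean above 7 and 0.22 between the 435 other pairs. Adjacent members had the same sign in 21 of 30 pairs (70%), and other pairs in 51.5%. Without the first group the same-sign shares were 66.7% of 27 adjacent pairs and 57.0% of the others. These pairs share members, so they are a description with no test.

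Genes other than ORs in the same stretch of chromosome gave no call over all probe sets, which is what the background share would give. Of 31 such genes tested, 10 lay before the first member, 11 inside the cluster and 10 after the last. Limma called 0 of them over all probe sets, and 2, both positive, passed an unadjusted p under 0.05. Of all probe sets tested, 0.0862% were called and 8.43% passed an unadjusted p under 0.05, so neither count stood out. The median change of the 31 genes was -0.01, and it was -0.09 before, 0.01 inside and 0.05 after the cluster. The first group of receptors lies between Stx3, which codes for a membrane fusion protein, at -0.03 (SE 0.09), and Patl1, which codes for an mRNA decay factor, at 0.16 (SE 0.07). Osbp, the oxysterol-binding protein gene next to Patl1, was at -0.01 (SE 0.06). Neither neighbour of the group was called (limma adjusted p over all probe sets of 0.948 for Stx3 and 0.577 for Patl1).

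**Figure D5:**
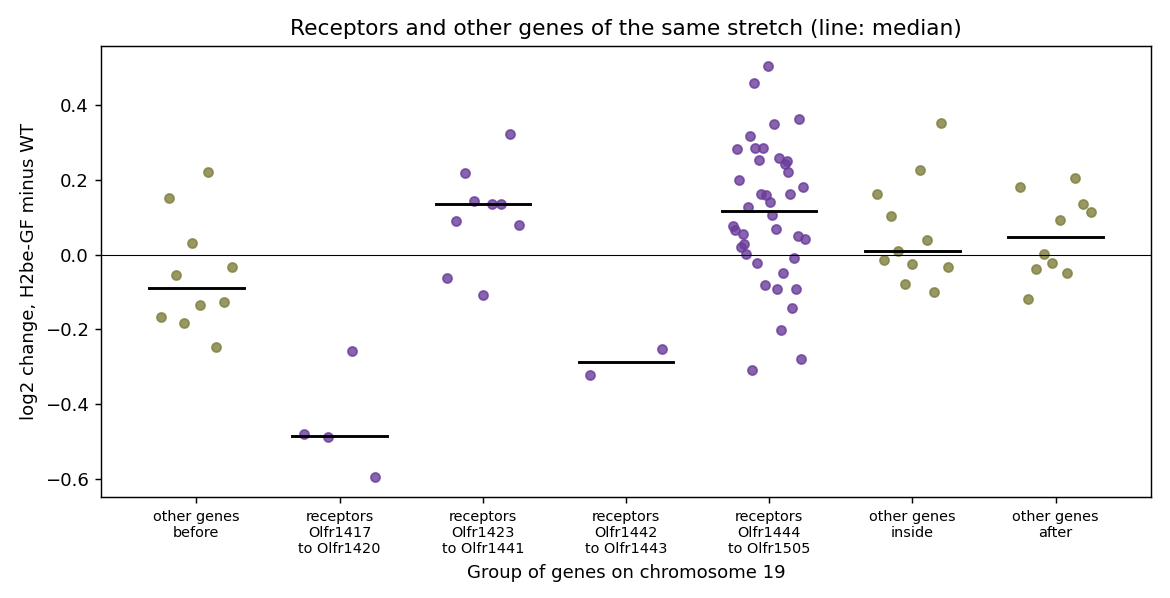
Log2 change (H2be-GF minus WT) of the 55 receptors with a mean above 5, in the 4 groups along the cluster (purple), and of 31 other genes before, inside and after it (olive); lines are medians and the sideways spread of points has no meaning. The 4 receptors Olfr1417 to Olfr1420 lie between -0.59 and -0.26, and the lowest of the 31 other genes lies at -0.25.

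The arrays fall into sets of high and low Xist, with 2 H2be-GF and 3 WT arrays in each. Olfr1420 changed by -0.52 in the arrays high in Xist and by -0.67 in the others, Olfr1417 by -0.41 and -0.55, Olfr1442 by -0.39 and -0.25, Olfr1440 by 0.36 and 0.28, and Olfr1463 by 0.30 and 0.21. Of the 31 members, 25 had the same sign in both sets (80.6%), 17 higher and 8 lower, against 71.8% of all 748 ORs. In the first 3 groups along the cluster both sets gave the same sign for all 11 members with a mean above 7, and in the distal group for 14 of 20. The interaction of genotype with the set was called for 0 of 31 members, with 2 at an unadjusted p under 0.05. It was called for 0 of all 748 ORs too. With 2 against 3 arrays in each set, the absence of a call cannot show that the sets agree.

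Array medians lay between 7.74 and 7.91, and arrays correlated at 0.969 to 0.988. The probe set of the H2BE gene, Hist2h2be (also H2bc21), had a level of 12.07 ± 0.05 (SD, n = 6) in WT and of 11.84 ± 0.07 (SD, n = 4) in H2be-GF (limma adjusted p = 0.297). Per the study, quantitative PCR put the transgene of this line far above the endogenous gene. This probe set did not rise, and whether it reads the transgene is not known here. The 9 markers of mature olfactory neurons, the cells that express ORs, had a mean log2 level of 11.63 to 11.67 in H2be-GF and 11.70 to 11.77 in WT, with 0 called, 2 lower at an unadjusted p under 0.05 and a median change of -0.10. The 4 markers of respiratory ciliated cells (9.48 to 9.60 against 9.63 to 9.76) and the 2 of the dorsal zone (11.42 to 11.52 against 11.52 to 11.69) were at lower list levels in H2be-GF too, with 0 called. In the ventral zone list (10.24 to 10.33 against 10.07 to 10.26) Ncam2, an adhesion molecule of olfactory axons, was higher on every H2be-GF array than on any WT array, at 0.26 (SE 0.05, limma adjusted p = 0.147 over all probe sets), and Nfix was at -0.06 (SE 0.09). Of 3 red blood cell genes 1 was measured, Alas2, a heme synthesis enzyme, at -0.32 (SE 0.12, adjusted p = 0.480 in limma). The list levels of immature neurons, sustentacular and basal cells, Bowman's glands and immune cells overlapped between genotypes. The part of these markers in the receptors' changes was not tested. Of 33 genes measured that act in OR expression and signalling, limma called 1 over all probe sets, Lhx2, a homeodomain factor that binds OR enhancers, at 0.37 (SE 0.06), and the median change of the list was -0.004.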

How the data were processed

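The authors deposited log2 values per probe set. They had checked the arrays for outliers and used Expression Console, with IterPLIER summaries and a sketch-quantile step, to make these values from the scans. Versions and the genome build of the annotation are not given in the sources used here. Quantile normalization hides changes that most genes share. Names came from the platform annotation, and 3 probe sets with several symbols that include an OR of this range were left out. The RefSeq gene table (GRCm38.p6) gave order, families and neighbours only, and its promoter table gave the sequences. Protein identity was not analysed here.

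Genotypes were compared by a two-sided limma fit without covariates (limma 3.58.1, R 4.3.3) on 23194 probe sets with a symbol and a mean above 5, with Benjamini-Hochberg adjustment over these and over the 748 ORs with a mean above 7, at a threshold of 0.05. The procedure was tested on simulated data. The 4 and 6 arrays limit the precision. Members and lists were chosen with earlier results of these data known. Named were Olfr1420, called members, those without overlap, up to 3 members on each side of each called one (20 at most) and those with a narrow interval. For others the text says that they were chosen later. Alternatives changed the normalization, an added constant of 16, the variance model, array weights, filters, the replicate number as a block, the Xist sets, the gap between groups and the arrays kept. Plots were drawn with matplotlib 3.10.9.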

Additional observations from a re-analysis of the deposited data

Results flagged for a closer look

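Single WT arrays lay far from the other WT arrays in 4 of the 52 groups of values examined for such gaps, where chance gives about 1 in 20. Olfr1417 was at 7.22 on WT 3, while the other WT arrays lay between 7.49 and 7.62. Olfr1426 was at 7.27 on WT 6 against 7.68 to 7.82 on the others. Olfr1459 was at 5.77 on WT 6 against 6.88 to 7.22, and the untested Olfr1436 was at 3.78 on WT 3 against 4.40 to 4.64.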

How the results depend on the processing

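Of 21 alternatives, 18 kept the calls of Olfr1420 and Olfr1417 over ORs. When 1 array was left out, Olfr1420 changed by -0.64 to -0.54 (limma adjusted p of 0.00386 to 0.0152) and Olfr1417 by -0.54 to -0.42 (0.0095 to 0.041). The labels do not say whether replicate numbers pair the arrays. The deviations of same-numbered arrays correlated at 0.53, 0.22, -0.42 and 0.26, and 1 of 4 matched its own number best. These 4 values cannot show whether arrays of the same number were handled together. With the replicate number as a block 0 members were called over ORs and 0 over all probe sets, and Olfr1420 changed by -0.65 (limma adjusted p = 0.0544 over ORs). Within the arrays high and low in Xist, of 2 against 3 arrays, 0 were called over ORs and 0 over all probe sets, with Olfr1420 at -0.52 (adjusted p = 0.165 in limma) and -0.67 (0.221). Members called over ORs, 5 in the fit reported, were 3 with each array centred on its median, 3 with array weights, 7 with a trended robust variance and 2 to 4 when 1 array was left out (2 without H2be-GF 1 or H2be-GF 2, and 3 without H2be-GF 4, WT 3, WT 5 or WT 6). The count over all probe sets was 0 with the Xist set as covariate, and 0 to 1 when 1 array was left out (0 without H2be-GF 1, 3 or 4 or WT 1, 2, 3 or 5). Olfr1442 kept its call in 16 of 21, Olfr1440 in 6 and Olfr1463 in 4. The median over Olfr1417 to Olfr1420 stayed between -0.55 and -0.41 and that of the far MOR266 members between 0.16 and 0.27 in all of these alternatives, while the median of all members ran from 0.058 to 0.19. The first group along the cluster, with a median of -0.06 when split at 200 kb, had -0.48 when split at 100 kb and 0.080 with members of a mean above 5 included. Uncalled members that changed sign were Olfr1462 (0.026 with array weights and 0.055 with the block), Olfr1441 (-0.045 with the block), Olfr1465 (-0.17 in the arrays high in Xist), and Olfr1434, Olfr1445 and Olfr1505 (-0.031, -0.086 and -0.045 in the arrays low in Xist). When 1 array was left out, Olfr1441 ran from -0.083 (without H2be-GF 1) to 0.20, Olfr1444 from -0.023 (without WT 3) to 0.14, Olfr1445 from -0.053 (without H2be-GF 1) to 0.15, and Olfr1462 from -0.12 to 0.062 (without WT 6). The cause was not tested. Dim members limit the comparison, since 24 of the 55 tested had a mean of 7 or below.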

Other observations

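The 3 probe sets that the annotation assigns to several symbols, among them receptors of this number range, had log2 changes of -0.21, 0.14 and 0.14, and limma called none over all probe sets (adjusted p of 0.753, 0.690 and 0.792). The cluster also holds Olfr76, Olfr235 and Olfr262, whose numbers lie outside the range. Their changes were -0.006 (SE 0.12), 0.13 (SE 0.11) and 0.20 (SE 0.17), without a call.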
